A study of Sus scrofa with 85 samples.

Results

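The infarcted region was compared with the non-infarcted region of the left ventricle within the first hour of a coronary occlusion, that is, while the artery was still closed. Micro-EMB (needle-thin endomyocardial biopsies) labelled apical 0–1 h made up the infarcted region and those labelled lateral 0–1 h the non-infarcted region. Libraries were kept where they held a total count of at least 1000000 and where 7 to 60% of the counts fell on the 10 most counted genes. This gave 8 of the 85 libraries of the series, 5 from the infarcted and 3 from the non-infarcted region, out of 9 libraries of 0–1 h. The left-out library was from the infarcted region of swine 1644 and had 63.9% of its counts on its 10 most counted genes.

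The animals were 3 female farm pigs of mixed breed, numbered 1640, 1644 and 5385, and every group held the same 3 animals. All were sedated, anesthetized and ventilated, and all had the balloon inflated in the distal LAD (left anterior descending artery, which supplies the front and apex of the heart) for 60 min before reperfusion. Swine 1640 gave infarcted-region libraries 4 and 5 and non-infarcted library 3, swine 1644 gave infarcted-region library 2 and non-infarcted library 1, and swine 5385 gave infarcted-region libraries 1 and 3 and non-infarcted library 2. The region was aimed at under fluoroscopy, and the study itself describes the aim as partly inaccurate. A further 4 libraries from before the occlusion (baseline) that met the same limits (1 from swine 1640, 1 from swine 1644, 2 from swine 5385) served as background. They carry the label apical but were not aimed at a region.

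A heart muscle cell cut off from blood loses oxidative ATP production within seconds to minutes, and its mitochondria then run down. In surviving cells the first transcriptional answer to such stress is made by immediate early genes, which need no new protein for their induction and encode transcription factors such as EGR1, MYC and the NR4A receptors. Their products, and feedback inhibitors such as the dual-specificity phosphatases, then shape the later inflammatory, coagulation and repair programs. Each micro-EMB also samples a small mix of muscle, connective tissue, vessel and nerve.

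Total counts ran from 3499443 to 8431393 in the 8 libraries, 13856 to 18490 genes reached 1 CPM (the count scaled to a library of 1000000 counts), and the 10 most counted genes took 21.3 to 33.2%. Principal component analysis of the 500 most variable genes set infarcted-region library 3 apart on the first component (51.9% of the variance), at 79.5 against -28.8 to 15.0 for the other libraries. Infarcted-region library 4 and non-infarcted library 1 had the highest values on the second component (28.2%), at 31.3 and 34.6. The defining heart muscle genes were present in all 8 libraries but were low in infarcted-region library 3, where the mean log2 CPM of 9 cardiomyocyte markers was 4.10 against 9.24 to 11.3 in the other libraries. The study left out 6 biopsies with raised collagen genes, which it took to come from fibrous parts of the heart. It kept 4 infarcted-region samples of 0–1 h, against 5 here. Whether infarcted-region library 3 was among those left out by the study was not determined. One baseline library, that of swine 1644, had a mean of 1.89 for the cardiomyocyte markers and a mean log2 CPM of 7.91 for 6 adipocyte markers. The most alike of the 8 libraries were infarcted-region library 1 and non-infarcted library 2, both from swine 5385, with r = 0.966 across genes.

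No gene of 17963 was regulated between the regions at an adjusted p-value of 0.05 in edgeR's quasi-likelihood test, and the smallest adjusted p was 0.99996. At an unadjusted p under 0.05 there were 67 genes (0.373%), 43 with higher (0.239%) and 24 with lower (0.134%) levels in the infarcted region. Where nothing differs, a well-calibrated test puts a share of about 0.05 of the genes under this limit. The share here was far smaller, so the absence of regulated genes does not show that the regions were alike. DESeq2 also found 0 regulated genes, with 0.924% of the genes at an unadjusted p under 0.05, and limma found 0, with 0.323%. The biological coefficient of variation was 0.655 and the median SE of a log2 fold change was 0.586, against a median absolute log2 fold change of 0.272. Over all genes 54.5% of log2 fold changes (infarcted minus non-infarcted throughout) were positive and 45.5% negative, with a median of 0.0403. In 76 genes (0.423%) all 5 infarcted-region libraries lay above all 3 non-infarcted libraries, and in 76 (0.423%) below. The 8 libraries came from 3 animals and entered this test as separate replicates.

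The immediate early transcription factors were far above their baseline in 1 library of each region. Their mean log2 CPM was 7.51 in infarcted-region library 4 (swine 1640) and 7.03 in non-infarcted library 1 (swine 1644), against 3.06 to 4.59 in the other 6 libraries and 3.20 to 3.32 in the baseline libraries. The 25 tested of 30 listed genes had a median log2 fold change between regions of 0.08, with 16 positive and 9 negative values, and 0 of them had an unadjusted p under 0.05.

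EGR1, a zinc-finger transcription factor induced by growth and stress signals (chromosome 2, 140440829 to 140445302 of Sscrofa11.1), was counted at 1005 and 83.2 CPM in the infarcted region of swine 1640, 65.6 CPM in that of swine 1644, and 117.6 and 108.3 CPM in that of swine 5385. In the non-infarcted region of the same swine, in the same order, EGR1 was at 38.5, 443 and 25.3 CPM, and in the baseline libraries at 29.1 to 60.7 CPM. The groups overlapped only through non-infarcted library 1, the second highest of all, and the log2 fold change was 0.71 (SE 1.15, n = 5 and 3, edgeR unadjusted p = 0.552). ARC, an activity-regulated gene known mostly from neurons (chromosome 4, 1517986 to 1521403), was at 889, 8.55, 1.71, 0.598 and 0 CPM in the infarcted region and at 6.97, 102.2 and 0.32 CPM in the non-infarcted region, both in the order of the swine 1640, 1644 and 5385 that is used from here on. Its baseline values were 0 to 1.16 CPM, and the log2 fold change was 2.30 (SE 2.44).

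NR4A3, an orphan nuclear receptor, was at 1327, 151.3, 26.8, 127.2 and 9.58 CPM in the infarcted region and 21.7, 315 and 15.7 CPM in the non-infarcted region. The proto-oncogene MYC was at 228, 29.2, 7.94, 8.01 and 18.9 CPM against 5.2, 181.6 and 8.31 CPM, with a log2 fold change of -0.15 (SE 1.32). In both genes the same 2 libraries stood highest and the regions overlapped. PDK4, the kinase that turns off pyruvate dehydrogenase, was at 1026, 55.6, 117.1, 28.5 and 0.266 CPM against 89.4, 426 and 26.7 CPM.

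**Figure D1:**
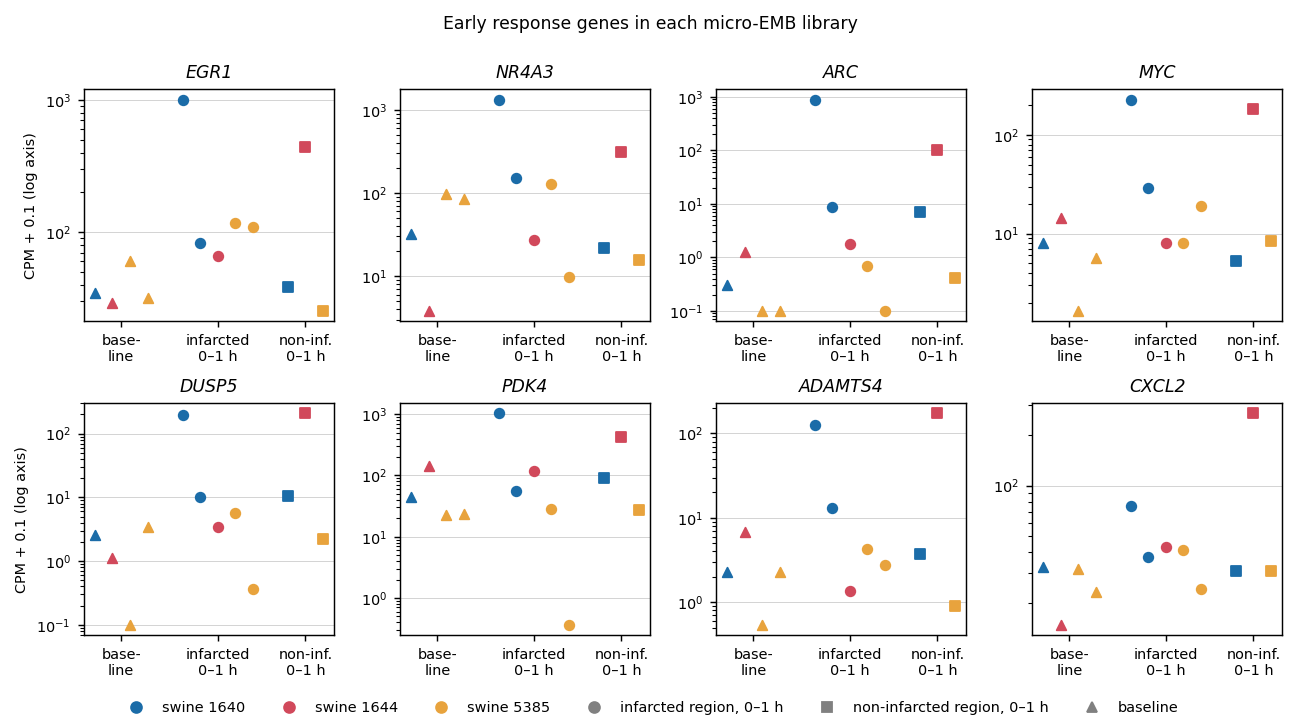
Levels of 8 early response genes, one panel each, as CPM + 0.1 on a log axis for the baseline libraries, the infarcted region and the non-infarcted region, with each point 1 library, the colour its swine and the marker its region. One infarcted-region library of swine 1640 and the non-infarcted library of swine 1644 sit highest in the panels, for example at 1005 and 443 CPM for EGR1, while most others sit near the baseline libraries.

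Within the animals the early response ran in opposite directions. In swine 1640 all 25 immediate early genes had higher values in the infarcted region, with a median difference of 2.32 on the log2 CPM scale. In swine 1644 all 25 had higher values in the non-infarcted region, with a median difference (infarcted minus non-infarcted) of -3.27, and in swine 5385, 20 of 25 were higher in the infarcted region with a median of 0.79. EGR1 followed this, with differences of 2.90, -2.75 and 2.15 in the 3 swine. Without infarcted-region library 4 the median log2 fold change of the list was -1.33, and without non-infarcted library 1 it was 2.25. The difference between the animals was not tested.

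The genes that the study lists for 0–1 h against baseline gave the same picture. This list is no independent evidence, because it was chosen on samples that include infarcted-region libraries used here. All 28 were tested, 15 had positive and 13 negative log2 fold changes between the regions, and the median was 0.06. Within the swine 28, 0 and 16 of the 28 were higher in the infarcted region, with medians of 2.40, -3.90 and 0.27. Of the 28 genes, 24 exceeded 4 times the highest baseline library in infarcted-region library 4, where 2.24% of all genes did so, and 26 did in non-infarcted library 1, where 2.4% of all genes did. In the other infarcted-region libraries 6 of the 28 did in library 5 (2.29% of all genes), 0 in library 2 (0.122%), 0 in library 1 (0.0501%) and 2 in library 3 (2.84%), and in the other non-infarcted libraries 3 did in library 3 (0.451%) and 1 in library 2 (0.117%). Members of this list include ADAMTS4, an aggrecan-cleaving protease, at 124.3, 12.9, 1.25, 4.19 and 2.66 CPM against 3.66, 172.4 and 0.799 CPM, and SRXN1, which restores oxidized peroxiredoxins, at 142.6, 4.4, 1.87, 0.837 and 1.06 CPM against 6.5, 49.2 and 4 CPM. OSMR, the receptor subunit of oncostatin M, was at 205.6, 71, 71.8, 22.6 and 18.9 CPM against 33.2, 304 and 25.3 CPM. In each of the 3 genes the same pair of libraries was the highest.

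The feedback inhibitors of MAPK, NF-kB and cytokine signalling had the same 2 libraries at the top, with mean log2 CPM of 6.23 and 6.32 against 2.90 to 4.07 in the others. Of 20 tested genes 3 had positive and 17 negative log2 fold changes, with a median of -0.40, where 45.5% of all genes were negative. Within the swine 18, 0 and 6 of the 20 were higher in the infarcted region, with medians of 0.98, -2.45 and -0.48. Over the 21 alternative settings described below, the median of the list ran from -1.13 to 0.76. DUSP5, a nuclear phosphatase of ERK, was at 198.0, 10.1, 3.27, 5.5 and 0.266 CPM against 10.4, 207.2 and 2.08 CPM. NFKBIA, the inhibitor that holds NF-kB in the cytoplasm, was at 50.8, 26.8, 36.1, 17.8 and 28.2 CPM against 26.6, 128.6 and 25.9 CPM, with a log2 fold change of -0.92 (SE 0.55). DUSP5 reached like levels in both high libraries, whereas NFKBIA was highest in non-infarcted library 1.

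Inflammatory and coagulation genes were highest in the non-infarcted library of swine 1644. The mean log2 CPM of 18 coagulation, fibrinolysis and endothelial activation genes was 6.61 there, 5.89 in infarcted-region library 4 and 3.31 to 4.69 in the others, and 10 of the 18 had their highest value in it. VCAM1, an adhesion molecule for leukocytes on activated endothelium, was at 34.1, 29.8, 47.2, 17.6 and 4.26 CPM against 20.3, 208.6 and 34.2 CPM (log2 fold change -1.72, SE 0.79, edgeR unadjusted p = 0.0541). PTGS2, the inducible cyclooxygenase, was at 18.3, 5.25, 4.2, 0.359 and 12.2 CPM against 0.354, 52.1 and 1.6 CPM. The chemokine CXCL2, which draws neutrophils, was at 75.4, 37.7, 43.1, 41.3 and 24.2 CPM against 31, 268 and 31 CPM. The 12 tested cytokines and chemokines had 5 positive and 7 negative log2 fold changes (median -0.49). Within the swine 9, 3 and 7 of the 12 were higher in the infarcted region. Over the 21 alternative settings described below, the median of this list ran from -0.75 to 1.65 and changed sign in 4. Apart from the non-infarcted library of swine 1644 the infarcted-region levels of CXCL2 and VCAM1 overlapped those of the other non-infarcted libraries. In the interferon list 1 of 14 genes had an unadjusted p under 0.05 with a lower level in the infarcted region, where 0.134% of all genes did, the antiviral GTPase MX2, at 40.3, 48.6, 56.7, 55 and 32.7 CPM against 24.7, 266 and 72.6 CPM (log2 fold change -1.37, SE 0.58, edgeR unadjusted p = 0.0401). Without non-infarcted library 1 the log2 fold change of MX2 was -0.05.

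The messenger RNAs of the mitochondrial genome were lower in every infarcted-region library than in the non-infarcted library of the same animal. They encode 13 subunits of the respiratory chain and ATP synthase. Summed, they took 3.00 and 3.36% of the counts in the infarcted region of swine 1640, 2.28% in swine 1644, and 3.04 and 0.762% in swine 5385. In the non-infarcted region they took 5.02, 3.83 and 3.38%, so that the regions did not overlap, though the gap between 3.36 and 3.38% is narrow. On the mean log2 CPM scale of the 13 genes the regions did overlap, at 10.999, 10.45, 10.16, 10.26 and 8.20 in the infarcted region against 11.37, 10.93 and 10.59 in the non-infarcted region, and infarcted-region library 4 lay above non-infarcted libraries 1 and 2. The left-out infarcted-region library of swine 1644, with 63.9% of its counts on 10 genes, was at 1.18%. Its sarcomere mean lay below, and its platelet marker mean above, those of the 8 libraries. On the log2 CPM scale its mean of the 13 genes was 9.80, within the 8.16 to 11.34 of the 8 libraries. The mean shares of the regions, without this library, were 2.49 ± 1.04% (SD, n = 5) and 4.07 ± 0.846% (SD, n = 3). The baseline libraries were at 4.32% in swine 1640, 1.13% in swine 1644, and 4.53 and 3.68% in swine 5385. The value of 1.13% was that of the library with few muscle and many adipocyte transcripts. The other baseline values lay above all infarcted-region libraries and within the range of the non-infarcted region.

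All 13 mitochondrial genes had negative log2 fold changes, with a median of -0.75, where 45.5% of all genes were negative, but 0 of the 13 had an unadjusted p under 0.05. They were lower in the infarcted region in all 3 swine in 13 of 13 cases, where 7.4% of all tested genes were, and the medians within the swine were -0.63, -0.78 and -1.34. Without infarcted-region library 3, in which these genes were lowest, the median of the log2 fold changes was -0.52, and without any other single library it was -0.97 to -0.62. These genes lie on 1 molecule and are transcribed together, so they do not count as separate observations. COX1, the catalytic subunit of cytochrome c oxidase, was at 9492, 6508, 5626, 7871 and 1493 CPM against 12105, 10254 and 10307 CPM, with no overlap (log2 fold change -0.81, SE 0.63, edgeR unadjusted p = 0.228). ND5, a subunit of complex I, was at 5129, 3854, 2807, 4742 and 1126 CPM against 7011, 5302 and 6225 CPM, again without overlap. CYTB, of complex III, was at 3226, 2205, 1802, 3162 and 749 CPM against 4204, 3059 and 4405 CPM, where infarcted-region libraries 4 and 1 lay just above non-infarcted library 1. In all, 3 of the 13 genes (COX1, ND5 and ND4L) had groups without overlap in this direction, where 0.423% of all genes did.

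**Figure D2:**
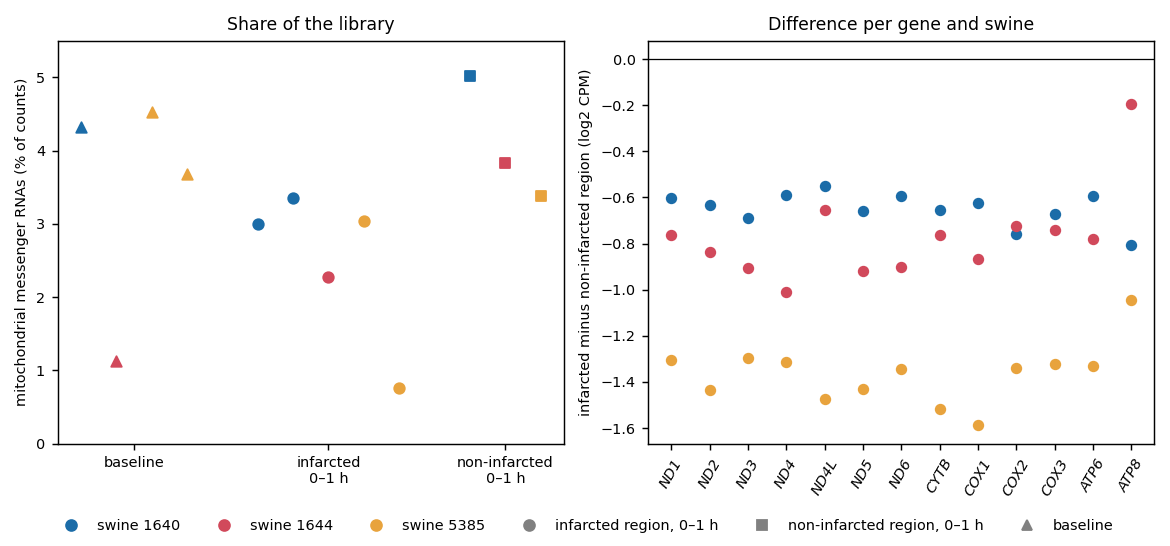
Left, the share of counts on the 13 mitochondrial genes in percent for each library of the infarcted region, the non-infarcted region and baseline, with each point 1 library and the colour its swine. Right, the difference (infarcted minus non-infarcted, log2 CPM) of each of the 13 genes within each swine, where all points lie below 0.

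Nuclear genes of energy metabolism did not show this order within all animals. All 20 tested nuclear-encoded oxidative phosphorylation genes had negative log2 fold changes, with a median of -0.37, and 0 had an unadjusted p under 0.05. Within the swine 0, 17 and 0 of the 20 were higher in the infarcted region, with medians of -1.02, 0.62 and -1.18. The 2 infarcted-region libraries of swine 5385 lay on opposite sides of its non-infarcted library. Their mean log2 CPM was 6.57 in library 1 and 3.51 in library 3, against 6.21. Library 1 had the highest of the 8 values in 18 of 20 genes and library 3 the lowest in 16. ATP5F1A, the alpha subunit of ATP synthase, was at 230.2, 160.9, 164.6, 479.5 and 53 CPM against 419, 136.6 and 346 CPM. CYC1, a subunit of complex III, was at 57.1, 33.2, 34.1, 89.9 and 18.6 CPM against 87.3, 36.4 and 97.8 CPM. In both genes the non-infarcted library of swine 1644 lay among the lower values of the infarcted region. The tricarboxylic acid cycle genes (23 of 24 negative, median -0.27) and the fatty acid oxidation genes (16 of 20 negative, median -0.32) had the same signs within the swine, with 1, 21 and 2 of 24 and with 2, 18 and 1 of 20 higher in the infarcted region. Here too infarcted-region library 1 had the highest of the 8 values in 22 of 24 and 12 of 20 genes. Infarcted-region library 3 had the lowest in 19 of 24 and 15 of 20.

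The sarcomere genes varied with the energy genes. All 19 tested contractile genes had negative log2 fold changes (median -0.60), and within the swine 0, 15 and 0 of 19 were higher in the infarcted region, with medians of -1.18, 0.56 and -3.32. MYL2, the regulatory light chain of ventricular myosin, was at 1148, 693, 709.8, 2546 and 7.72 CPM against 2277, 468 and 2499 CPM (log2 fold change -0.78, SE 1.10). TNNT2, cardiac troponin T, was at 3044, 1813, 2486, 5589 and 85.2 CPM against 4699, 1557 and 6913 CPM. Both genes were lowest by far in infarcted-region library 3, the highest infarcted-region level came from library 1 of the same animal, and the regions overlapped. All 19 genes had their lowest value in infarcted-region library 3, and without it the median log2 fold change was -0.29. In such bulk samples fewer muscle cells and less RNA per muscle cell cannot be told apart.

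**Figure D3:**
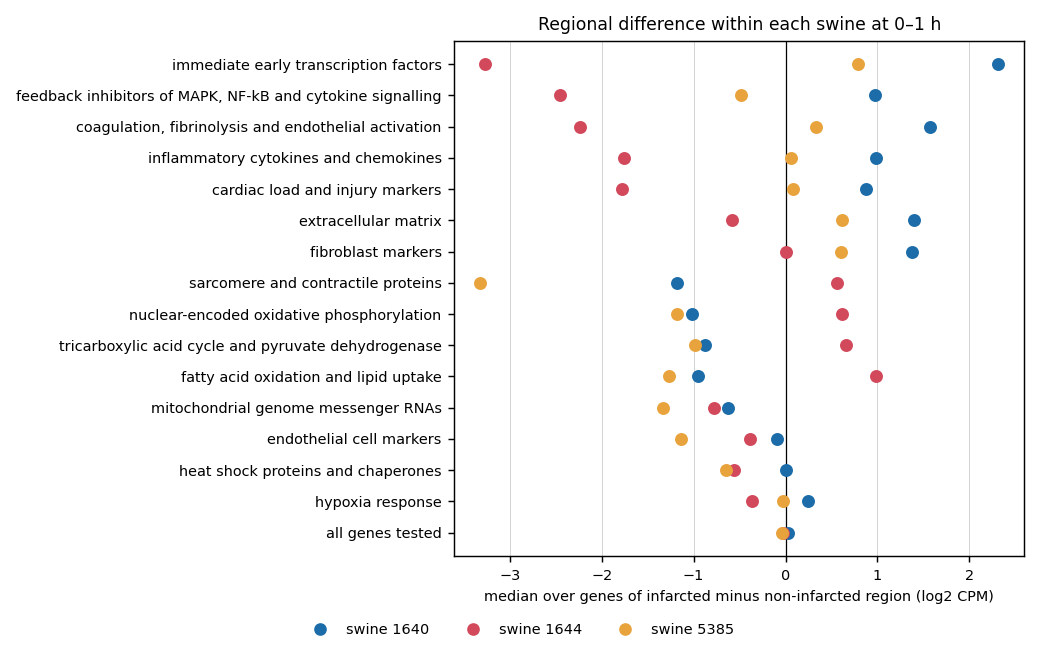
Median difference between the regions (infarcted minus non-infarcted, log2 CPM) of 15 gene lists and of all tested genes, with each point 1 swine. The mitochondrial genome list lies below 0 in all 3 swine (-0.63, -0.78 and -1.34), whereas the immediate early list runs from -3.27 to 2.32.

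Connective tissue genes had positive log2 fold changes in the infarcted region without passing the test. All 11 tested fibroblast markers were positive (median 0.98), where 54.5% of all genes were, and 5 of the 11 were higher in all 3 swine, where 6.52% of all genes were. In swine 5385 the list mean (log2 CPM) was 6.80 in infarcted-region library 1 and 8.94 in library 3, against 7.47 in the non-infarcted library. Library 1 thus lay below the non-infarcted library of its animal. None of the 11 markers had an unadjusted p under 0.05 in edgeR. Of the 11, 8 had their highest value in infarcted-region library 3 and the other 3 in infarcted-region library 4. Without library 3 the median of the fibroblast list was 0.34 and that of the extracellular matrix list was 0.19. COL3A1, the chain of type III collagen, was at 5866, 2193, 2609.7, 1590.1 and 13143 CPM against 1169, 3474 and 3014 CPM (log2 fold change 0.99, SE 0.79). DCN, the collagen-binding proteoglycan decorin, was at 163.96, 45.8, 87.5, 83.1 and 693 CPM against 67.7, 86.9 and 111.3 CPM. Apart from those 2 libraries the infarcted-region values lay within or below the range of the non-infarcted region for DCN, with 87.5 CPM at most.

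Of 20 extracellular matrix genes 17 had positive log2 fold changes (median 0.79), with 20, 3 and 17 of 20 higher in the infarcted region within the swine. In swine 5385 the list mean (log2 CPM) was 7.90 in infarcted-region library 1 and 10.25 in library 3, against 8.66 in the non-infarcted library. FN1, fibronectin, was at 412, 401, 329.5, 109.4 and 3579.8 CPM against 159.8, 505 and 160.2 CPM (log2 fold change 1.81, SE 1.07, edgeR unadjusted p = 0.121). LOX, which crosslinks collagen and elastin, was at 23.1, 10.9, 9.19, 6.58 and 165.9 CPM against 4.73, 17.5 and 12.6 CPM. TNC, a matrix protein of early wounds, was at 6.5, 16, 55.9, 5.5 and 97.7 CPM against 5.32, 223 and 10.9 CPM, highest in the non-infarcted library of swine 1644. CILP, a matrix protein of cartilage and heart, was at 13.5, 80.3, 63.7, 12.8 and 60.7 CPM against 20.3, 35.7 and 20 CPM, which put 3 infarcted-region libraries from 3 animals above all others and 2 below. FAM111A, a protease that restricts viruses, was at 35.5, 36, 29.6, 16.6 and 65.5 CPM against 11.2, 120.6 and 16.5 CPM.

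**Figure D4:**
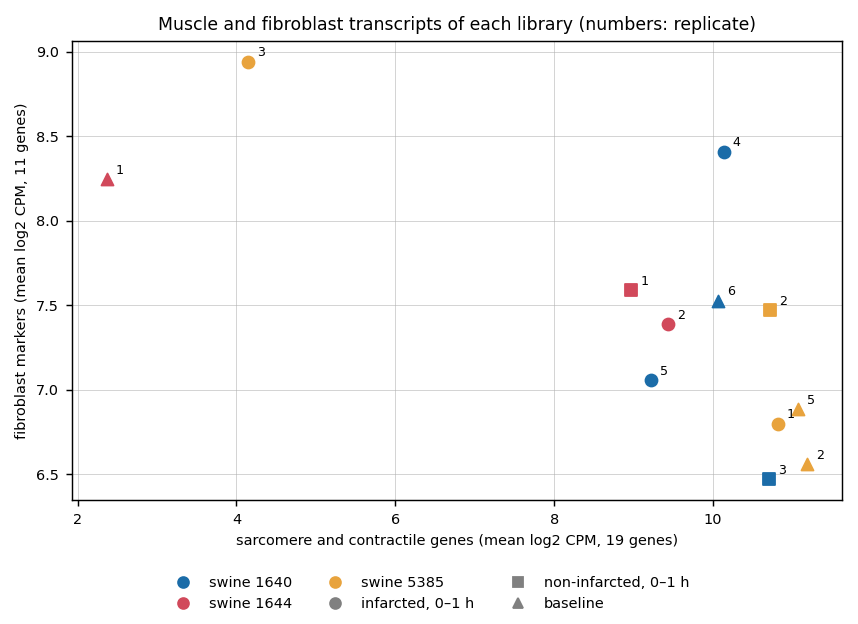
Mean log2 CPM of the sarcomere genes against that of the fibroblast markers, with each point 1 library labelled by its replicate number, the colour its swine and the marker its group. Infarcted-region library 3 (4.15 and 8.94) and the baseline library of swine 1644 (2.36 and 8.25) lie far below the other libraries on the sarcomere axis.

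Other cell types differed by library. The mean log2 CPM of 11 endothelial markers was 4.35 in infarcted-region library 3 and 6.52 to 7.02 in the other 7 libraries, and 10 of the 11 had negative log2 fold changes (median -0.42). CDH5, the endothelial cadherin, was at 112.4, 121.2, 104.5, 113.4 and 29.3 CPM against 121.4, 150.4 and 146.5 CPM. It was the 1 of the 11 without overlap between the regions, by a narrow gap, where 0.423% of all genes lay fully below. Without infarcted-region library 3 the median of the endothelial list was -0.14. MYH11, smooth muscle myosin, was at 8.67, 2796, 348, 75.8 and 20.5 CPM against 408, 226 and 17.7 CPM, so that infarcted-region library 5 alone held a large amount of it. The macrophage receptor VSIG4 was at 66.8 CPM in infarcted-region library 3 and at 0.31 to 9.59 CPM in the others. All 5 Schwann cell and nerve markers had positive log2 fold changes (median 1.01), where 54.5% of all genes did. Within the swine 4, 4 and 3 of the 5 were higher in the infarcted region. The list mean (log2 CPM) was 1.60 to 3.59 in the infarcted region, 0.74 to 2.22 in the non-infarcted region and 0.41 to 3.11 at baseline. The T and NK cell list had 1 of 10 positive values (median -0.52) and the macrophage list 9 of 12 (median 0.13). One of 6 adipocyte markers, ADIPOQ (adiponectin), had an unadjusted p under 0.05 with a lower level in the infarcted region, where 0.134% of all genes did, at 0.155, 0.733, 0.311, 0 and 0 CPM against 1.3, 0.433 and 5.6 CPM, that is, on few reads. The part of these cell types in the regional differences was not tested.

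Several other stress and signalling lists had medians near that of all genes. The hypoxia list (6 of 16 positive, median -0.13), the unfolded protein list (8 of 13, median 0.01), the circadian clock list (9 of 14, median 0.09) and the growth factor list (12 of 25, median -0.05) had 0 genes at an unadjusted p under 0.05 in edgeR. EPAS1, the hypoxia-inducible factor of endothelium, was at 538, 665, 461, 509 and 75.1 CPM against 551, 568 and 510.2 CPM. The heat shock list stood lower, with 4 of 18 positive and 14 negative log2 fold changes (median -0.23), and 7 of the 18 were lower in the infarcted region in all 3 swine, where 7.4% of all genes were. Infarcted-region library 3 had the lowest value in 12 of the 18. In swine 5385 the mean log2 CPM of the list was 5.595 in infarcted-region library 1 and 4.12 in library 3, against 5.52. HSPB1, a small heat shock protein of this list abundant in heart muscle, was at 180.5, 108.2, 58.2, 140.5 and 31.4 CPM against 218, 115.2 and 229 CPM. ZBTB16, a glucocorticoid-responsive zinc-finger gene, was at 266, 175.2, 475, 319 and 57.2 CPM against 328, 172.7 and 331 CPM (log2 fold change -0.10, SE 0.56) and at 99.9 to 141.4 CPM in the baseline libraries. It thus exceeded every baseline library in 7 of the 8 libraries, in both regions.

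One apoptosis regulator had no overlap, BNIP3L, a receptor for the removal of mitochondria, at 20.4, 28.6, 32.7, 22.8 and 55.1 CPM in the infarcted region against 20.2, 13.4 and 20.3 CPM in the non-infarcted region (log2 fold change 0.82, SE 0.38, edgeR unadjusted p = 0.056). It was picked out after its values were seen, and 0.423% of all genes lay fully above in this way. The baseline libraries were at 20.8 to 59.8 CPM, within the infarcted range and just past it.

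The genes of smallest p without overlap between the regions were of middling or low level. They had to separate the groups to be named, so their values are a description. RNF6, a RING-finger ubiquitin ligase (chromosome 11, 4020752 to 4033040), was at 13.2, 19.4, 12.3, 16.7 and 11.7 CPM in the infarcted region against 23.5, 41.4 and 33.1 CPM, with the baseline libraries between them at 21.1 to 21.6 CPM (log2 fold change -1.15, SE 0.31, edgeR unadjusted p = 0.00366, adjusted p = 0.99996). KIAA1755 (chromosome 17, 41275501 to 41321328) was at 24.5, 21.9, 26.5, 16.4 and 19.2 CPM against 10.2, 9.38 and 13 CPM (log2 fold change 1.00, SE 0.31, edgeR unadjusted p = 0.00869). Its baseline libraries were at 9.04 to 17.6 CPM and overlapped both regions. Within each region the values of both genes spanned less than 2-fold.

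ABHD17B, an enzyme that removes palmitate from proteins (chromosome 1, 225149922 to 225193329), was at 23.4, 16.9, 25.5, 22.5 and 21 CPM against 30.6, 44.8 and 35.2 CPM. RAD18, a ubiquitin ligase of DNA damage tolerance (chromosome 13, 65253416 to 65359506), was at 24.2, 16, 16.5, 12.7 and 22.9 CPM against 10.5, 11.8 and 4.96 CPM. The baseline libraries were at 20.5 to 30.5 CPM for ABHD17B and 3.97 to 16.9 CPM for RAD18, which overlapped the infarcted region in both genes. SGCE, epsilon-sarcoglycan of the dystrophin complex, was at 13.9, 18, 18.8, 15.4 and 43.1 CPM against 13.1, 10.8 and 9.75 CPM. VARS1, the valyl-tRNA synthetase, was at 14.9, 18.9, 18.1, 23 and 25.3 CPM against 33.8, 27.6 and 29.3 CPM. PCDH19, a protocadherin, was at 29.4, 29.1, 44.2, 29.7 and 20.5 CPM against 54, 45.2 and 46.2 CPM. Of these 3 genes SGCE was higher in the infarcted region and the other two lower, each by a narrow gap. Others rested on few reads, such as ZRSR2, a splicing factor of minor introns, with 13, 4, 6, 4 and 11 counts against 0, 0 and 1, and ANKRD2, a stretch-responsive ankyrin-repeat protein of muscle, with 0, 21, 14, 11 and 8 counts against 32, 44 and 51.

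**Figure D5:**
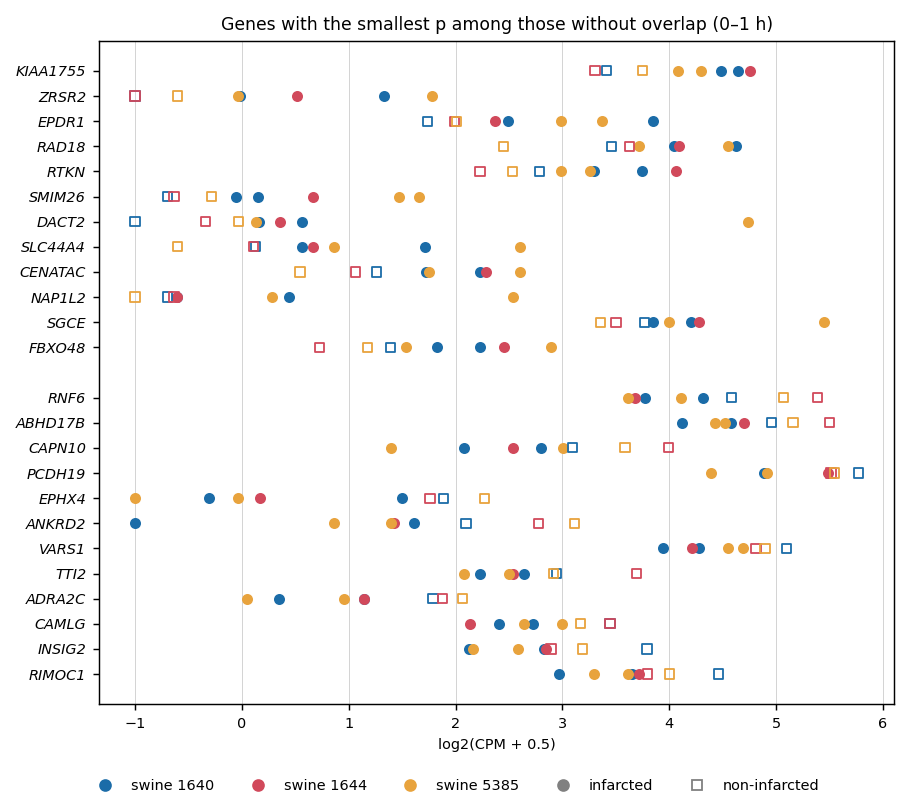
Levels, as log2 (CPM + 0.5), of the 24 named genes of smallest p whose regions did not overlap, with each point 1 library, the marker its region and the colour its swine. The genes were picked for this separation, and most lie within a few log2 units between the regions, as RNF6 with 11.7 to 19.4 against 23.5 to 41.4 CPM.

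The regional difference at 0–1 h was compared with that at 1–3 h, after reperfusion, as an interaction over 20 libraries. Of 18496 genes 0 passed the adjusted threshold in edgeR and 0.876% had an unadjusted p under 0.05. The smallest p-value was that of GFAP, an intermediate filament of glia that is also made by some Schwann cells, with an interaction of 7.38 on the log2 scale (SE 1.93, edgeR unadjusted p = 0.000964, adjusted p = 0.999967).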

How the data were processed

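The authors mapped reads of SMARTer Pico libraries to Sscrofa11.1 with STAR, counted them per Ensembl gene with featureCounts without regard to strand, and deposited raw counts (versions not given in the sources used here). Reads of overlapping antisense genes cannot be told apart. Of 31907 gene identifiers 15029 had a symbol, as had 12798 of the 17963 tested. Positions are from RefSeq for Sscrofa11.1, matched by symbol.

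Groups came from the labels for location and timepoint. Genes that reached 1 CPM in 2 or more of the 8 libraries were tested with edgeR 4.0.16 in R 4.3.3 (TMM, quasi-likelihood test, region as the only term, Benjamini-Hochberg adjustment). The fits were first run on simulated counts drawn without outlying libraries or shared animals. That check does not bear on the power of the test in these data. DESeq2 1.42.0 and limma 3.58.1 (voom) were alternatives. CPM levels used TMM factors over the 8 and 4 baseline libraries. List means were of log2 CPM with a prior count of 2. Within a swine, the mean of the infarcted minus that of the non-infarcted libraries was taken.

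The swine number pairs libraries, since equal numbers are the same animal. Deviations from group means correlated at -0.436 to 0.63 in 5 pairs of the same swine (mean 0.0209) and -0.654 to 0.442 in 10 pairs of different swine (mean -0.00518). Named were, in each direction, the 12 genes with a symbol of smallest p without overlap, of each list the most highly expressed member and the 2 of largest absolute log2 fold change, genes that the study's text names, and 6 of its 0–1 h list. From these the text gives those that bear on a result, and CDH5, CYC1, BNIP3L, VSIG4 and the interaction gene were added after their values were seen. The members, lists and limits were chosen with earlier results of these data known.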

Additional observations from a re-analysis of the deposited data

Results flagged for a closer look

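Within groups of 4 to 10 libraries, 27 groups of values (12.5% of those tested) had 1 library far from the others by Dixon's criterion. Chance gives about 1 in 20 for independent values that were not selected. Here the same libraries entered many groups, and many genes were named for their regional differences in these data. The share of 12.5% therefore cannot show an excess over chance. Of the 27 groups, 16 were in infarcted-region library 3, 5 in infarcted-region library 4, 1 in infarcted-region library 1 and 5 in the baseline library of swine 1644. The 3 non-infarcted libraries are too few for this criterion.

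Infarcted-region library 4 of swine 1640 had a mean log2 CPM of 7.51 for the immediate early genes (others 3.61 to 4.59), and log2 CPM values of 9.97 for EGR1, 8.38 for SPRED1, an inhibitor of Ras signalling, 8.43 for BIRC3, an inhibitor of apoptosis, and -2.03 for ANKRD2.

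Infarcted-region library 3 of swine 5385 had low means for the sarcomere genes (4.15, others 9.22 to 10.81), calcium handling genes (4.02), cardiomyocyte markers (4.1) and endothelial markers (4.35). Among single genes its log2 CPM was low for MYH6 (8.05), MYL2 (2.99), TNNT2 (6.42), COX1 (10.54), EPAS1 (6.23), KDR (3.9), CD74 (7.64) and SLA-DMA (0.88). It was high for the matrix protein gene MFAP5 (7.78), DACT2 (4.72), the clock output gene DBP (4.61) and SGCE (5.44). MYH6 may share reads with MYH7, which had no named row of its own. TUBB1, a tubulin of platelets, was low in infarcted-region library 1 of the same animal (1.33, others 2.67 to 3.13).

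The baseline library of swine 1644 had means of 2.36 for sarcomere genes, 3.66 for calcium handling, 1.89 for cardiomyocyte markers, 5.67 for the hypoxia list and 7.91 for adipocyte markers (others 1.25 to 2.02).

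Every immediate early gene was higher in the infarcted region of swine 1640 (median difference 2.32 log2 CPM) and lower in that of swine 1644 (-3.27), and so was every gene of the study's 0–1 h list (2.4 and -3.9). The difference between these animals was not tested.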

How the results depend on the processing

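The count of regulated genes was 0 in all 21 alternatives, and the interaction with 1–3 h gave 0 in all of its alternatives (DESeq2, the swine as replicate block, and 26 libraries without the limit on the 10 most counted genes). The share of genes at an unadjusted p under 0.05, 0.373% in the fit reported, was 0.924% with DESeq2, 0.323% with limma, 0.423% with RLE factors, 0.661% without the filter on low counts, 0.311% with 1 CPM required in 5 libraries, 0.956% in a fit of 45 micro-EMB libraries, 0.506% with all 9 libraries and 0.373% without mitochondrial and ribosomal protein genes. With the swine as replicate block, which pairs libraries of the same animal, 0 genes passed the adjusted threshold and 0.156% the unadjusted one, and with counts summed per swine and region 0.426%. Leaving out 1 library at a time gave 0 regulated genes throughout and shares from 0.302% (without non-infarcted library 2) to 1.15% (without non-infarcted library 1), with 0.944% without infarcted-region library 1, 0.823% without 4 and 0.667% without 5. In alternatives chosen after seeing the data, leaving out infarcted-region library 4 and non-infarcted library 1 gave 0.946%, leaving out infarcted-region library 3 as well 1.2%, and leaving out infarcted-region library 3 alone within the block 0.17%. Over these settings the median of the immediate early list ran from -1.33 to 2.25 and changed sign in 4, that of the study's list from -2.04 to 2.54 (8), and that of the coagulation list from -1.14 to 1.21 (5). The medians of the mitochondrial list (-1.05 to -0.52), the sarcomere list (-1.44 to -0.26) and the fibroblast list (0.01 to 1.20) kept their sign. The cause of these shifts was not tested.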

Other observations

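Hemoglobin messenger RNA differed between animals. HBB, the beta chain of hemoglobin, was at 609.9 to 5388 CPM in the 5 libraries of swine 5385 (2 infarcted-region, 1 non-infarcted and 2 baseline libraries) and at 8.66 to 33.1 CPM in the 7 libraries of the other animals. The wall stress hormone gene NPPB was at 422 CPM in infarcted-region library 4 and 422 CPM in the baseline library of the same swine 1640, against 0.156 to 18.3 CPM in the other 10 libraries. MYL4, the atrial light chain of myosin, was at 151.9 and 162.1 CPM in the same 2 libraries, at 26.9 and 26.2 CPM in the other 2 libraries of swine 1640 and at 0 to 2.89 CPM in the other animals.

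The infarcted-region library of swine 1644 that was left out for its 10 most counted genes had a mean log2 CPM of 3.17 for the immediate early genes (3.02 to 7.43 in the 8 libraries on the same scale), 3.65 for sarcomere genes (4.11 to 10.80), 3.64 for fibroblast markers (6.43 to 8.90) and 7.97 for platelet markers (0.26 to 3.39).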
